A study of Homo sapiens with 22 samples.

Results

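JUN binding was mapped by chromatin immunoprecipitation and sequencing (ChIP-seq) in LNCaP prostate cancer cells that carried either wild-type FOXA2 (FOXA2OE) or FOXA2 with the lysine-to-arginine substitution K265R (FOXA2K265R). The regions compared here are those with a score of at least 100 in each of these 2 lists, 7657 of the 71499 regions that the lists hold and of 871377 in the 22 lists of the whole series. The FOXA2OE list gave 2906 of its 23994 regions and the FOXA2K265R list gave 4751 of its 47505. A region was called shared when it overlapped a region of the other list by at least 1 bp, and was otherwise called FOXA2OE-only or FOXA2K265R-only. The score is the integer in the fifth column of each list, by the convention of the peak caller MACS2 10 times the negative log10 of a p or q value, and which of them it holds is not given in the sources used here.

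The series examined FOXA2, its demethylase LSD1 and the AP-1 factors JUN and FOSL1 in prostate cancer lines, by ChIP-seq and by sequencing of accessible chromatin (ATAC-seq). PC3 stands for androgen receptor-negative disease and NCI-H660 for neuroendocrine disease. LNCaP is an androgen receptor-positive line from a lymph node metastasis that lacks FOXA2 of its own, so FOXA2 in both groups came from a lentiviral construct with a FLAG tag, kept in stable cells by puromycin selection. The question behind the comparison was whether the lysine that LSD1 demethylates in FOXA2 matters for the cooperation of FOXA2 with JUN.

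Both groups were vehicle samples by their titles, and each had 1 list, so no difference between them has a replicate check and no p-value is given. Among its labels the title alone sets the FOXA2K265R sample apart: the cell line field names the FOXA2OE line, and it has no antibody or treatment field. The region names of the 2 lists also carry different processing folders. FOXA2 form, library and processing folder therefore cannot be told apart in any difference below. The lists end at different lowest scores, 30 for FOXA2OE and 23 for FOXA2K265R, while their median widths are close at 259 and 267 bp. All intervals given for shares are 95% Wilson intervals and cover counting error over regions only. The depth of the libraries is unknown, and region lists hold no expression by which the identity of the cells could be checked.

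JUN is a subunit of AP-1, a family of leucine zipper dimers formed by JUN, FOS, ATF and MAF proteins. JUN with FOS proteins prefers the TPA response element TGACTCA, found mostly at enhancers, whereas JUN with ATF or CREB family proteins prefers the longer palindrome TGACGTCA, the cyclic AMP response element (CRE), common at promoters. FOXA proteins are forkhead pioneer factors that bind closed chromatin and help other factors reach it.

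Sequences around the motif nearest to the centre of the region are given for members among the highest-scoring of 4 sets, because the classes described below differ in their shares of the 2 motifs. They are printed 5′ to 3′ on the plus strand of hg19 with 20 bases on either side, and capitals mark the CRE or the AP-1 word, which reads TGACTCA or, on the other strand, TGAGTCA. Windows that touch an annotated exon and places overlapped in at least 17 of the 22 lists were passed over. The first set is shared regions at promoters with a CRE, at genes for the MAP kinase phosphatases DUSP8 and DUSP1, the RAS GTPase-activating protein NF1 and the AP-1 subunit JUND:
DUSP8, chr11:1593548-1593595: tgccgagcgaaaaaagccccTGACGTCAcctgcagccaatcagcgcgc
NF1, chr17:29421809-29421856: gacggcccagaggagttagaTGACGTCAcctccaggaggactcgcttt
DUSP1, chr5:172198296-172198343: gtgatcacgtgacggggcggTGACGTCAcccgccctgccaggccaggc
JUND, chr19:18392605-18392652: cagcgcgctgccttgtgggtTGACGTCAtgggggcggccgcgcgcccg
Their scores were 1024 and 2345 at DUSP8, 1014 and 1980 at NF1, 868 and 1812 at DUSP1 and 995 and 1811 at JUND, in FOXA2OE and FOXA2K265R. The regions at all 4 genes were also in the JUN lists of LNCaP cells with control siRNA (siNC) and of NCI-H660, and those at DUSP1 and JUND were in the PC3 JUN list too.

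The next set is FOXA2K265R-only regions away from promoters with an AP-1 word and no FOXA2OE region of any score, each named by a gene whose intron holds it (the ANO10 window also lies in an intron of SNRK):
ANO10, chr3:43464904-43464950: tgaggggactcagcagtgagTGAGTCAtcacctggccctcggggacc
MPV17, chr2:27544132-27544178: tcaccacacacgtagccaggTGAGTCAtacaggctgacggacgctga
U2SURP, chr3:142695633-142695679: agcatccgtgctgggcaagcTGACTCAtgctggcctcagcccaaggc
ALDH1A2, chr15:58624521-58624567: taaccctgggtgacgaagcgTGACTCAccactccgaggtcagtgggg
Their FOXA2K265R scores were 1655, 1327, 1140 and 1030. Each of the 4 lay in the LNCaP siNC and PC3 siNC JUN lists and in the ATAC lists of PC3 and NCI-H660.

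Shared regions away from promoters with an AP-1 word, and FOXA2K265R-only regions at promoters with a CRE, complete the picture. Of the former, 1 shown here lay 106363 bp from the nearest start, that of NPIPB11, and 1 in an intron of GAS6, and the 3 highest of the latter at TRMO, a transfer RNA methyltransferase gene, and at 2 histone H4 genes:
near NPIPB11, chr16:29302453-29302499: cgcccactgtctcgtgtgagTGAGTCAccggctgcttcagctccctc
GAS6, chr13:114540825-114540871: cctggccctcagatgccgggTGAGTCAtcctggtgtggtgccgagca
TRMO, chr9:100684493-100684540: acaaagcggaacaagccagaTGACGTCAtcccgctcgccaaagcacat
H4C8, chr6:26285866-26285913: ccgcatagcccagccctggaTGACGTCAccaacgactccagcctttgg
HIST1H4B, chr6:26026592-26026639: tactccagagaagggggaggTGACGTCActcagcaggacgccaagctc
The shared set scored 433 and 2092 near NPIPB11 and 666 and 1875 at GAS6, in FOXA2OE and FOXA2K265R. TRMO, H4C8 and HIST1H4B scored 943, 864 and 863 in FOXA2K265R.

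FOXA2K265R cells had more JUN regions than FOXA2OE cells at every score minimum tried. At 100 the log2 ratio of region numbers was 0.71 (counting interval 0.64 to 0.78). With all regions it was 0.99 and from a minimum of 50 it was 0.50. From 200 it was 1.42, and from 500 it was 1.79, on 579 against 167 regions. The excess was therefore larger from 200 and from 500 than among all regions, and smaller from 50 and from 100.

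With the same minimum in both lists, high-scoring FOXA2OE regions were mostly found in the FOXA2K265R list. The share in the other direction was lower, and the lengths of the lists limit it. At a score of 100, 1295 of 2906 FOXA2OE regions (44.6%, 42.8 to 46.4) were overlapped by a FOXA2K265R region of at least 100, and 1970 (67.8%) by one of any score. From a minimum of 200, 84.3% of 657 FOXA2OE regions were overlapped, and from 500, 97.6% of 167. In the other direction 1284 of 4751 FOXA2K265R regions (27.03%, 25.8 to 28.3) were shared, 31.1% from a minimum of 200 and 27.6% from 500. The FOXA2K265R list was longer at each minimum, which limits the share in that direction. From 200, 1758 FOXA2K265R regions faced 657 FOXA2OE regions, of which 554 were overlapped. From 500, 579 faced 167, of which 163 were overlapped, so the share in that direction could hardly have been higher. When each list was limited to its top 2906 regions by score, the shares were close to each other at 38.4% and 37.8%. Against regions of any score in the other list, 74% of the top 500 FOXA2K265R regions and 98% of the top 500 FOXA2OE regions were overlapped. The next 500 gave 65.6% and 86.8%. These targets differ in length too: the FOXA2K265R list covers 0.548% of the genome and the FOXA2OE list 0.254%.

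The shared regions formed 1304 overlapping pairs. The FOXA2K265R score was higher in 1045 pairs (80.1%), lower in 250 and equal in 9. The median ratio of the scores was 1.54 (quartiles 1.10 and 2.25), and the scores rose together with a Spearman correlation of 0.70 across pairs, which share 2 libraries and are not independent. Scores depend on library depth and calling, so a higher score here is a property of the list and not a measured occupancy.

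**Figure D1:**
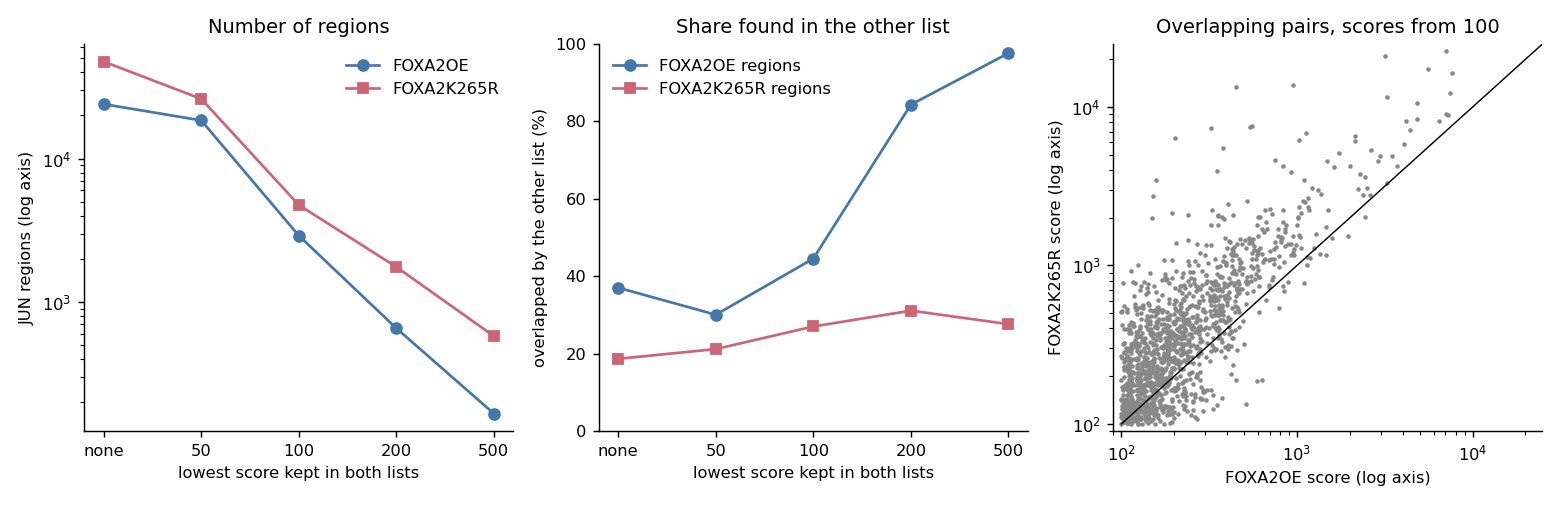
Number of JUN regions kept at each score minimum (left, log axis), share of each list overlapped by the other (middle, in percent) and scores of the 1304 overlapping pairs of at least 100 (right, log axes, with the line of equal scores). FOXA2OE regions from a score of 200 were mostly found in the FOXA2K265R list (84.3%). The share in the other direction was at most 31.1% with the same minimum in both lists, where the shorter FOXA2OE list limits it. Of the pairs, 1045 lie above the line.

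The regions found in 1 list at 100 divide by what the other list held below 100. Of the 3467 FOXA2K265R-only regions, 897 met a FOXA2OE region of lower score and 2570 met none. Of the 1611 FOXA2OE-only regions, 675 met a lower FOXA2K265R region and 936 met none. FOXA2OE-only regions were low-scoring, with a median of 111 and a highest score of 446, whereas FOXA2K265R-only regions had a median of 141 and reached 7069. Shared regions had a median FOXA2K265R score of 318.5 and a median FOXA2OE score of 192.

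Regions just above and just below the minimum were as follows. In the FOXA2OE list, 211 of 420 regions with scores of 100 to 104 (50.2%) met a FOXA2K265R region of any score, against 220 of 437 (50.3%) with scores of 95 to 99. In the FOXA2K265R list the corresponding shares were 38.2% of 285 and 30.3% of 743.

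Among the 5 highest-scoring shared regions outside places found in at least 17 lists were those in an intron of TAF4B at chr18:23841144-23841350 (FOXA2OE score 7263, FOXA2K265R score 8896), in an intron of USP24 at chr1:55583226-55583420 (4389 and 7117), at chr20:47724751-47724956 (2149 and 6594) and in an intron of PDGFD at chr11:104010496-104010711 (203 and 6379). The USP24 region was in none of the other 20 lists.

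Among FOXA2K265R-only regions with no FOXA2OE region of any score, and again outside those places, the highest was at chr5:102374882-102375146 (score 5762), 31609 bp from the start of PAM, which amidates peptide hormones. It was in 13 lists, among them the JUN lists of LNCaP siNC, PC3 and NCI-H660. The next were at chrX:136520403-136520605 (4333), at chr22:18883684-18883944 near DGCR6 (3025), in an intron of IQCJ-SCHIP1 at chr3:158946408-158946597 (3010) and in an intron of ANO10 at chr3:43464782-43465068 (1655). The regions near DGCR6 and in ANO10 were in 14 lists each, also in the LNCaP siNC JUN list, and only the ANO10 region held an AP-1 word.

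The highest FOXA2OE-only regions without any FOXA2K265R region scored far lower: 446 in an intron of AARS1 at chr16:70320964-70321169, 392 and 358 in intergenic sequence at chr4:49327148-49327424 and chr4:49286861-49287146, 382 in an intron of GRIK2 at chr6:101595876-101596133 and 313 in an intron of PRKAR1B at chr7:682173-682387. None of these 5 held an AP-1 word or a CRE, and none was in a JUN, FOXA2 or ATAC list of PC3 or NCI-H660 grown as control.

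Shared JUN regions lay at promoters more often than FOXA2K265R-only regions, and these more often than FOXA2OE-only regions. Within 1 kb of the start of a protein-coding transcript were 590 of 1284 shared regions (46.0%, 43.2 to 48.7), 1052 of 3467 FOXA2K265R-only regions (30.3%, 28.8 to 31.9) and 276 of 1611 FOXA2OE-only regions (17.1%, 15.4 to 19.05). Such sequence is 2.52% of the genome. The share in FOXA2K265R-only minus that in shared regions was -15.6 percentage points (interval -18.7 to -12.5).

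The 2 kinds of FOXA2K265R-only region differed in this. Where FOXA2OE had a lower-scoring region, 48.0% of 897 were at promoters, close to the shared class, and where it had none, 24.2% of 2570 were (22.5 to 25.9). The latter were in introns in 25.02% and intergenic in 48.3%, and 39.96% lay over 50 kb from any start. They were also less GC-rich, with a median of 57.2% GC around the centre against 66.7% in shared regions and 62.2% in the 936 FOXA2OE-only regions without a FOXA2K265R region.

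The shared and FOXA2K265R-only classes differed in their motifs. Within 100 bp of the centre, the CRE word TGACGTCA was in 240 of 1284 shared regions (18.7%, 16.7 to 20.9) but in 123 of the 2570 FOXA2K265R-only regions without a FOXA2OE region (4.79%, 4.03 to 5.68). The AP-1 word went the other way, with 134 shared regions (10.4%, 8.88 to 12.2) against 498 of these FOXA2K265R-only regions (19.4%, 17.9 to 20.95). The FOXA2K265R-only regions that met a FOXA2OE region below 100 held fewer AP-1 words than either, in 55 of 897 (6.13%, 4.74 to 7.90), and a CRE in 41 (4.57%). Over all FOXA2K265R-only regions the AP-1 share was 16.0%, 5.51 percentage points above the shared class (interval 3.37 to 7.51). The words do not overlap each other, and both were present in 5 shared regions.

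For comparison, windows moved 2 kb to either side held an AP-1 word in 3.27% (shared) and 2.65% (FOXA2K265R-only without a FOXA2OE region). Of 285857 windows of the same length spaced 10 kb apart in the genome, 3.01% held an AP-1 word and 0.0742% a CRE, and of windows at 78564 protein-coding starts 2.46% and 1.51%. Both words were thus above these shares in shared and in FOXA2K265R-only regions.

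FOXA2OE-only regions held the AP-1 word no more often than these background windows. At their promoters the CRE stood above all starts. Of the 936 without a FOXA2K265R region, 18 held an AP-1 word (1.92%, 1.22 to 3.02) and 14 a CRE (1.496%, 0.893 to 2.49). Of the 675 with a lower FOXA2K265R region, 11 held an AP-1 word and 11 a CRE (1.63% each). At the 114 promoter regions among the 936, 11 held a CRE (9.65%, 5.47 to 16.5), against 1.51% of windows at all starts. Elsewhere 3 of 822 did (0.365%, 0.124 to 1.07), against 0.0742% of genome windows and 0.182% of windows 2 kb from them.

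The CRE was more frequent at promoters in both classes, and the AP-1 word was most frequent in FOXA2K265R-only regions elsewhere. At promoters, 198 of 590 shared regions held a CRE (33.6%, 29.9 to 37.5), against 76 of 621 FOXA2K265R-only regions without a FOXA2OE region (12.2%). Elsewhere the CRE was in 6.05% of 694 shared regions and 2.41% of 1949 such FOXA2K265R-only regions. The AP-1 word was in 421 of the 1949 (21.6%, 19.8 to 23.5) and in 73 of the 694 (10.5%), a difference that was smaller at promoters, 12.4% against 10.3%.

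The AP-1 shares were also compared within bands of GC content, since the classes differ in it. Among windows of 50 to 60% GC, the AP-1 word was in 329 of 1486 FOXA2K265R-only regions without a FOXA2OE region (22.1%), 9 of 187 shared regions (4.81%), 3 of 348 FOXA2OE-only regions without a FOXA2K265R region (0.862%) and 2.99% of 40838 genome windows. Between 60 and 70% GC the shares were 19.4%, 12.97%, 2.97% and 2.33%. Between 70 and 80% GC the order was the reverse, with 7.17% of 251 FOXA2K265R-only and 9.98% of 401 shared regions.

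Without regard to GC content, the forkhead words bound by FOXA proteins were rarer in every class than beside it. The 8 words searched, on both strands, were TGTTTAC with its variants ending in AT, GC and GT, and the same words with A as the second base. They were in 10.1% of shared regions and 27.6% of windows 2 kb away, in 16.5% and 31.1% for FOXA2K265R-only regions without a FOXA2OE region, and in 4.49% and 33.7% for FOXA2OE-only regions without a FOXA2K265R region. The genome windows held one in 34.6%. These words are rich in A and T, and the GC content given above moves with their share. Among windows of 50 to 60% GC, they were in 19.8% of shared regions and 19.4% of FOXA2K265R-only regions without a FOXA2OE region. FOXA2OE-only regions without a FOXA2K265R region held them in 5.17% and genome windows in 11.7%. Between 60 and 70% GC these shares were 9.90%, 10.3%, 4.58% and 5.22%, and between 70 and 80% GC 4.49%, 1.99%, 1.6% and 1.74%.

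The distance of the words from the centre was similar in shared and FOXA2K265R-only regions. The CRE nearest the centre was within 25 bp in 132 of 240 shared (55%) and 84 of 164 FOXA2K265R-only regions with one (51.2%). For the AP-1 word the counts were 71 of 134 (53.0%) and 277 of 553 (50.1%). In FOXA2OE-only regions 8 of 29 AP-1 words (27.6%) and 15 of 25 CRE words (60%) were that close. Forkhead words were within 25 bp in 32.3% of shared, 31.3% of FOXA2K265R-only and 18.3% of FOXA2OE-only regions that held one.

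**Figure D2:**
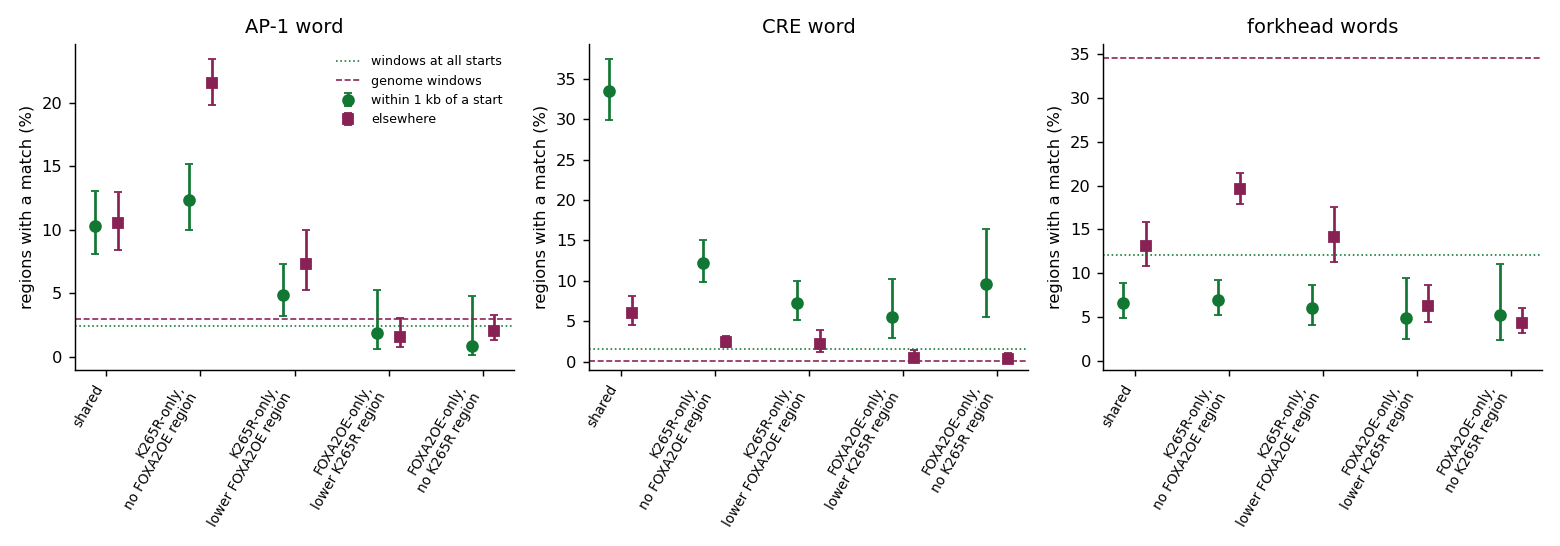
Share of regions in each class (percent, with 95% Wilson intervals) that hold an AP-1 word, a CRE word or a forkhead word within 100 bp of the centre, at promoters (circles) and elsewhere (squares), with the shares in windows at all protein-coding starts (dotted) and in windows across the genome (dashed). The CRE peaks in shared promoter regions (33.6%) and the AP-1 word in FOXA2K265R-only regions elsewhere (21.6%), and FOXA2OE-only regions elsewhere lie at 1.56% to 2.07% for the AP-1 word.

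The 2 lists also differed in their motifs when each was ranked by its own score, which needs no common scale. In successive bands of 500 regions, the AP-1 word was in 9.6%, 9.8% and 7.2% of the first 3 FOXA2OE bands and in 19.2%, 20% and 20.4% of those of FOXA2K265R. The CRE was in 26.2%, 17.4% and 9% of these FOXA2OE bands and in 16.2%, 18.2% and 16.4% of these FOXA2K265R bands. In the FOXA2OE list both words fell to 2.8% (AP-1) and 2.4% (CRE) by the fifth band, whose scores were 104 to 111, while the fifth FOXA2K265R band, with scores of 152 to 181, still held 16% and 6%.

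Below 100 the words were scarce in both lists. Of 15565 FOXA2OE regions with scores from 50 to below 100, 1.92% held an AP-1 word and 0.469% a CRE, and of 21344 such FOXA2K265R regions 3.27% and 0.464%. For the AP-1 word the genome windows stood between these, at 3.01%.

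**Figure D3:**
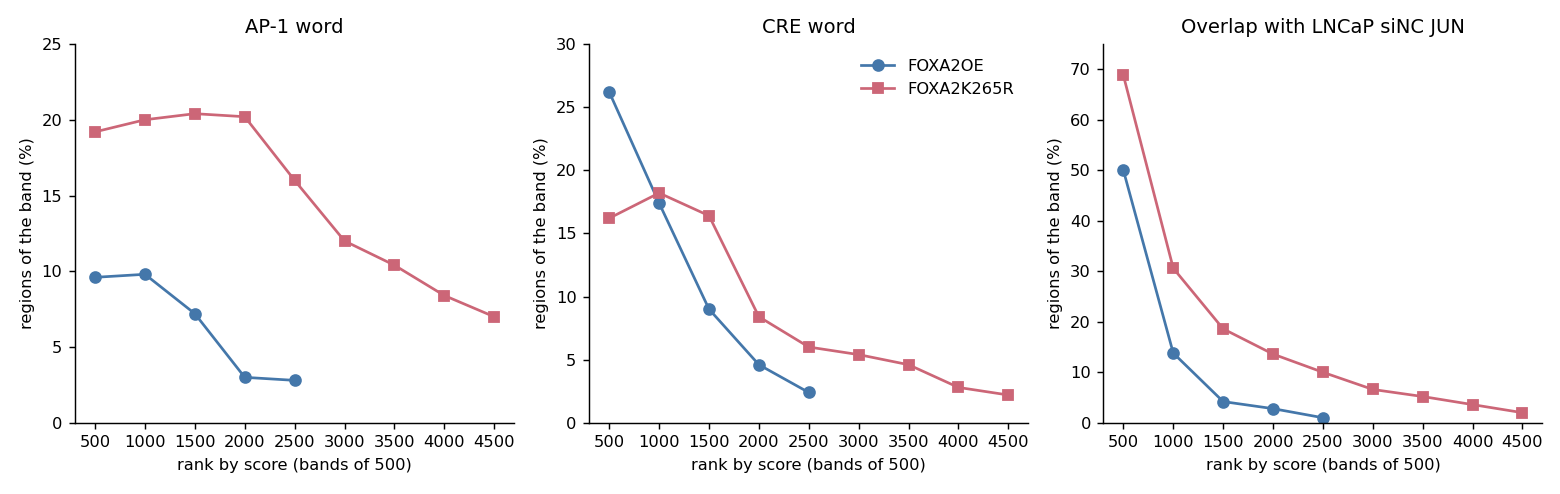
Share of regions (percent) with an AP-1 word, with a CRE word and overlapped by the LNCaP siNC JUN list, in bands of 500 regions ranked by score within each list, each point drawn at the last rank of its band. At the same rank FOXA2K265R bands lie above FOXA2OE bands for the AP-1 word, while the first FOXA2OE band holds more CRE words (26.2% against 16.2%).

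JUN regions of LNCaP cells without a FOXA2 construct were found more often in the FOXA2K265R list than in the FOXA2OE list. The siNC list holds 2421 regions and no scores. Of these, 804 (33.2%, 31.4 to 35.1) were overlapped by a FOXA2K265R region of at least 100 and 359 (14.8%, 13.5 to 16.3) by a FOXA2OE region. FOXA2K265R and not FOXA2OE overlapped 453 of them, and FOXA2OE and not FOXA2K265R overlapped 8. Among the 453, 34.4% held an AP-1 word and 5.96% a CRE, and among the 351 that met both, 18.8% and 18.5%.

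Seen from the classes, 348 of 1284 shared regions (27.1%, 24.7 to 29.6), 395 of 2570 FOXA2K265R-only regions without a FOXA2OE region (15.4%, 14.0 to 16.8) and 5 of 936 FOXA2OE-only regions without a FOXA2K265R region (0.534%, 0.228 to 1.24) were in the siNC list. The same regions moved by 2 kb met it in 2.49%, 1.34% and 0.427%. The siFOXA1 list of the same line gave 22.3%, 11.1% and 0.427%. These shares, and those in the JUN lists of the other lines below, include places found in at least 17 lists. Such places were 9.81%, 3.50% and 0.321% of the 3 classes. Of all FOXA2OE regions, the siNC list met 14.3% at promoters and 11.8% elsewhere, but 8.72% without those places. The JUN shares by class are not given without them. Of the first 500 regions by score, 68.8% of FOXA2K265R and 50% of FOXA2OE were in the siNC list.

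The JUN lists of the other lines gave the same order of classes. The PC3 siNC list met 36.6% of shared regions (34.0 to 39.3), 23.9% of FOXA2K265R-only regions without a FOXA2OE region (22.2 to 25.5) and 1.28% of FOXA2OE-only regions without a FOXA2K265R region (0.735 to 2.23), which was not above their share when moved by 2 kb (1.39%). The NCI-H660 siNC list met 60.4%, 33.0% and 4.59%. Over all 3467 FOXA2K265R-only regions the PC3 share was 22.5% (21.1 to 23.9). At 1397 of the 2570 regions (54.4%) none of the 3 siNC lists had a JUN region, and the same was so for 33.1% of shared and 94.6% of the 936 regions.

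The overlap with each line differed by motif. Of the 498 FOXA2K265R-only regions that held an AP-1 word and met no FOXA2OE region, 279 were in the PC3 JUN list (56.0%) and 206 in the NCI-H660 list (41.4%), and of the 240 shared regions with a CRE, 95 were in the PC3 list (39.6%) and 212 in the NCI-H660 list (88.3%). Among all FOXA2OE regions, the 171 with an AP-1 word were in the PC3 list in 71.9% and in the NCI-H660 list in 66.1%. For the 303 with a CRE these shares were 34.0% and 84.2%. The PC3 list holds an AP-1 word in 49.5% of its 23890 regions and a CRE in 0.670%. For the 18401 regions of the NCI-H660 list these shares are 13.8% and 3.15%. FOSL1, a FOS-family partner of JUN, met 19.5% of shared and 10.7% of these 2570 regions in PC3.

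FOXA2 lists met fewer of the regions, and part of that overlap was at places found in most lists. In PC3 with vehicle, FOXA2 met 14.9% of shared and 11.98% of FOXA2K265R-only regions without a FOXA2OE region. Without places overlapped in at least 17 of the 22 lists, which were 9.81% of shared, 3.50% of these FOXA2K265R-only and 0.321% of the 936 FOXA2OE-only regions, the shares were 5.70% and 8.79%, so the order of the 2 classes turned. The 2 PC3 FOXA2 lists made with other antibodies met 18.6% and 16.1% of shared and 19.3% and 17.4% of these FOXA2K265R-only regions, the reverse order with the places included. In NCI-H660 with vehicle the shares were 15.5% and 9.11%, and 6.65% and 5.97% without those places. For FOXA2 in the LNCaP FOXA2OE cells, a list of 2500 regions without scores, they were 18.2% and 8.83%, and 9.76% and 5.89% without them. FOXA2OE-only regions without a FOXA2K265R region met these FOXA2 lists in 0.534% to 0.855%.

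Overlap with FOXA2 in the LNCaP FOXA2OE cells was mostly away from promoters, at 223 of 694 shared regions (32.1%) against 11 of 590 at promoters (1.86%), and mostly without an AP-1 word or CRE. It was met by 226 of 915 shared regions without either word (24.7%), by 6 of 134 with an AP-1 word and by 2 of 240 with a CRE. These counts include the places found in most lists, which were 126 of the 1284 shared regions. Without those places the share of all shared regions met was lower, as given above. The split by position and by word is not given without them, so part of it may rest on those places. Of the 2500 FOXA2 regions, 494 (19.8%) met a FOXA2K265R JUN region of at least 100 and 249 (9.96%) a FOXA2OE one. Forkhead words were in 26.4% of the 2500 and in 34.6% of the genome windows, without regard to GC content. No FOXA2 list of FOXA2K265R cells was analysed here.

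Accessible chromatin of PC3 and NCI-H660 contained most shared and FOXA2K265R-only regions but few FOXA2OE-only regions. The PC3 ATAC list met 85.4%, 63.7% and 19.2% of shared, FOXA2K265R-only without a FOXA2OE region and FOXA2OE-only without a FOXA2K265R region, and the NCI-H660 list met 77.0%, 51.9% and 15.0%. Regions accessible in PC3 and not in NCI-H660 were 11.5% of shared and 18.4% of the FOXA2K265R-only class, and 29.7% of its 498 members with an AP-1 word. Neither line was accessible at 29.6% of this class and at 76.3% of the FOXA2OE-only class. The acetylated histone H3K27ac of PC3, a mark of active enhancers and promoters, met 73.2%, 47.2% and 12.5%. LNCaP accessibility was not analysed here.

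**Figure D4:**
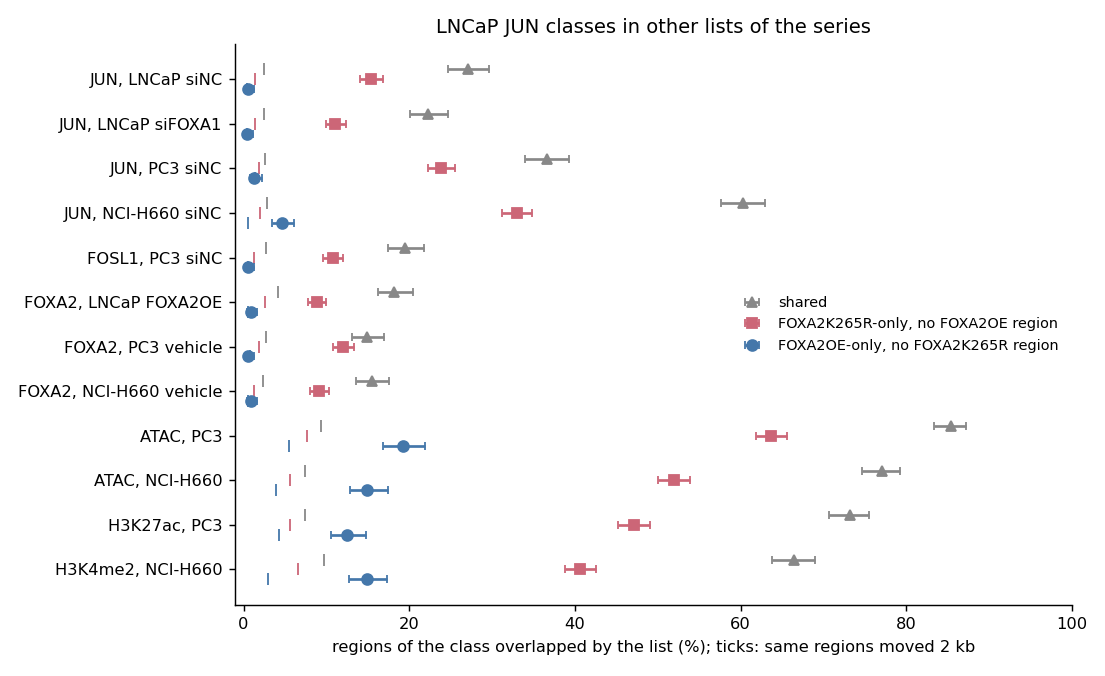
Share of shared (triangles), FOXA2K265R-only (squares) and FOXA2OE-only (circles) JUN regions that overlap other lists of the series, in percent with 95% Wilson intervals, where each -only class is the regions with no region of any score in the other list; ticks give the same regions moved 2 kb to either side. In the 12 lists drawn the shared class has the highest share and the FOXA2OE-only class the lowest, for example 60.4%, 33.0% and 4.59% in the JUN list of NCI-H660. The 2 PC3 FOXA2 lists with other antibodies, which have the reverse order of shared and FOXA2K265R-only, are not drawn, and the order in PC3 vehicle FOXA2 turns without places found in at least 17 lists.

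At the level of genes, 1850 of 19821 protein-coding genes had a FOXA2K265R region of at least 100 within 1 kb of a start and 971 had a FOXA2OE region. Both lists did at 696 genes (3.51% of all genes), only FOXA2K265R at 1154 (5.82%) and only FOXA2OE at 275 (1.39%). Of the 1154, 572 (49.6%) had a lower-scoring FOXA2OE region at the start and 582 had none. Within 50 kb of a start, 3071 genes (15.5%) had only FOXA2K265R regions and 1223 (6.17%) only FOXA2OE regions. The named genes below come from lists chosen for the biology of the series, and counts of a list are read beside these shares of all genes. A region given within 50 kb of a named gene is away from that gene's own starts, and may lie at the start of another gene.

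The highest promoter scores shared by both lists were at SHTN1 (1322 in FOXA2OE and 3004 in FOXA2K265R), KMT2E (1364 and 2818), DUSP8 (1024 and 2345) and 1 region serving TNFRSF12A and CLDN6 (722 and 2125). The highest FOXA2K265R-only promoters were TK2 (1172), the myosin light chain gene MYL6 (996, with a FOXA2OE region of 65), ABR (975) and CDC27 (960), a subunit of the anaphase-promoting complex. The highest FOXA2OE-only promoters were CTAGE8 (204, with a FOXA2K265R region of 87), FAH (197), ORAI2 (196, with 96) and TRIM16 (192).

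Of the gene lists, the AP-1 subunits had the largest share of starts with a region in both lists. These were 5 of 20 (25%, beside 3.51% of all genes), with 1 more only in FOXA2K265R and 1 only in FOXA2OE. JUN scored 373 in FOXA2OE and 2035 in FOXA2K265R, JUND 995 and 1811, and ATF3, a stress-induced partner of JUN, 418 and 1398. FOSL2, a FOS-family subunit, scored 245 and 915, with an AP-1 word in its region, and MAFF, a small MAF protein, 216 and 415, with a CRE. All of these were higher in FOXA2K265R, as were 80.1% of all pairs. At the start of FOSB the scores were 128 in FOXA2OE and 67 in FOXA2K265R, but a region with an AP-1 word 11851 bp away scored 325 and 1341. Within 50 kb and not at the start were JDP2, a repressor among the AP-1 proteins (129 and 1017, at different places 37696 and 18181 bp from its start), MAFK (181 and 817), ATF4 (223 and 151) and FOS (128 and 204).

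Immediate early and AP-1 target genes followed. Of 33 genes, 4 had regions at the start in both lists (12.1%), 2 only in FOXA2K265R (6.06%) and none only in FOXA2OE. Over all genes these shares were 3.51%, 5.82% and 1.39%. The zinc finger factor KLF6 scored 1016 and 2010 in FOXA2OE and FOXA2K265R, DUSP1 868 and 1812, the antiproliferative gene BTG2 616 and 1294, and the pseudokinase gene TRIB1 440 and 1166, the last at a place found in 20 lists. CCN1, a matricellular protein gene downstream of YAP and AP-1, scored 120 and the growth factor antagonist SPRY2 107, both in FOXA2K265R alone. Away from the start, ZFP36 had regions of 282 and 1200 and NR4A1 of 336 and 599, and SPRY4 (339) and IER3 (288) had FOXA2K265R regions only.

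Of the 9 genes that the study tested by ChIP-qPCR, 2 had a region of at least 100. NDC80, a kinetochore gene, scored 129 in FOXA2OE and 208 in FOXA2K265R at its start, with a CRE in the region. PTHLH, which encodes parathyroid hormone-related protein, scored 111 in FOXA2OE and had no FOXA2K265R region at its start, the highest within 50 kb lying 5803 bp away with a score of 89. CEP55 and CDK1 had 4 low FOXA2K265R regions each within 50 kb, the highest of 63 and 70, and no FOXA2OE region. INCENP, CCBE1, TP63 and WNT7A had regions of 50 to 88 in both lists, and ERCC6L had none in either.

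Among 24 neuroendocrine transcription factors, only SOX4 had a region at its start, in FOXA2K265R (143, 4.17% of the list beside 5.82% of all genes). Within 50 kb were ST18 (102 and 236, at different places), INSM1 (114, FOXA2OE only), and ISL1 (112) and SOX11 (109) in FOXA2K265R only. Among 21 secretory and surface markers none had a start region in both lists, 4 had one only in FOXA2K265R (19.05%, beside 5.82% of all genes) and 2 only in FOXA2OE (9.52%, beside 1.39%). The former were the granins SCG2 (300, with a CRE), SCG3 (119) and CHGB (109, against 84 in FOXA2OE) and the prohormone convertase gene PCSK2 (232, against 91). The latter were ELAVL4 (126, against 89 in FOXA2K265R) and SCG5 (103). Apart from SCG2 and PCSK2, these scores lie close to the minimum. Further off were ENO2 (191 and 214), UCHL1 (105 and 177), CHGA (142 in FOXA2OE and close to the minimum in FOXA2K265R) and DLL3 (105, FOXA2OE only).

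In the WNT pathway, whose output is set by β-catenin, 1 of 45 genes had start regions in both lists (2.22%). Only FOXA2K265R had them at 3 (6.67%) and only FOXA2OE at 2 (4.44%). The shares of all genes were 3.51%, 5.82% and 1.39%. The kinase gene GSK3B scored 277 and 600. CTNNB1, which encodes β-catenin, scored 146 in FOXA2K265R and 86 in FOXA2OE, the receptor gene FZD1 100 in FOXA2K265R alone, and LGR5 100 and 84. WNT5B had 131 in FOXA2OE alone, and APC 121 in FOXA2OE and 46 in FOXA2K265R. At a distance were DVL1 (594, FOXA2K265R only), LRP5 (148 and 481), DVL2 (410 and 411) and WNT7B (168 and 206).

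Stem-like and basal genes had start regions in both lists at 2 of 30 (6.67%, beside 3.51% of all genes). Only FOXA2K265R had them at 3 (10%, beside 5.82%) and only FOXA2OE at none (beside 1.39%). TEAD1, the DNA-binding partner of YAP, scored 758 and 1299, and S100A2 223 and 613 with an AP-1 word. TRIM29 (209, against 40), the laminin chain gene LAMB3 (193, with an AP-1 word) and YAP1 (just over the minimum) were FOXA2K265R-only. Away from their own starts, SOX9 (202), WWTR1 (372) and VIM (109) had FOXA2K265R regions only and ITGB4 had 247 and 309.

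Androgen receptor target and luminal genes had the largest share of FOXA2K265R-only starts among the lists, 6 of 29 (20.7%), beside 5.82% of all genes, with 3 in both lists (10.3%) and none only in FOXA2OE. Shared were the luminal keratin KRT8 (233 and 434, with an AP-1 word), CENPN (290 and 512, with a CRE) and PMEPA1 (144 and 286, with a CRE). The FOXA2K265R-only starts were KRT18, the partner of KRT8 (227, against 63), STEAP2 (161, against 84), the androgen receptor cofactor GATA2 (144), KLK2 (132), STEAP1 (131, against 53) and ELL2 (103, against 62). KLK3, which encodes prostate-specific antigen, had regions of 100 and 150 that did not overlap, 18685 and 17321 bp from its start. CDH1 (162) and NDRG1 (138) had FOXA2K265R regions only, at a distance. The median score of all FOXA2K265R-only regions was 141, within the range of these starts.

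Cell cycle and mitosis genes had 1 of 46 in both lists, NDC80 (2.17%, beside 3.51% of all genes). A further 3 were only in FOXA2K265R (6.52%, beside 5.82% of all genes). These were NUF2 (268, against 92), which binds NDC80 in the kinetochore, CDC25C (227) and the mitotic kinesin gene CENPE (151, against 65). Away from the gene's own start were regions near AURKB (658 and 1106), CDK4 (238, FOXA2K265R only), MCM7 (126 and 201) and MYBL2 (192, FOXA2OE only). Notch pathway genes were in both lists at 2 of 24 (8.33%, beside 3.51% of all genes). These were HES4 (488 and 1367, with a CRE) and NOTCH2 (111 and 115). MAML3 (104) was FOXA2K265R-only (4.17%, beside 5.82% of all genes). NOTCH3 had 313 and 1041 at 4579 bp from its start.

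The FOXA family and the LSD1 complex had no start region in either list, 0 of 18 (interval up to 17.6%). Of all genes, 4.90% had a start region in FOXA2OE and 9.33% in FOXA2K265R, both within that interval. PHF21A, a subunit of the LSD1 complex, had regions of 408 and 1422 at 45834 bp, GSE1 437 in FOXA2K265R only, and GFI1, a repressor that recruits LSD1, 111 in FOXA2OE only. The FOXA2 gene had only low regions within 50 kb, the highest of 43 in FOXA2OE and of 89 in FOXA2K265R, and KDM1A, the LSD1 gene, had none. The cytosolic ribosomal protein genes, taken as a list of constantly active promoters, stood near all genes, with 3 of 85 in both lists (3.53%), 4 only in FOXA2K265R (4.71%) and 1 only in FOXA2OE (1.18%).

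**Figure D5:**
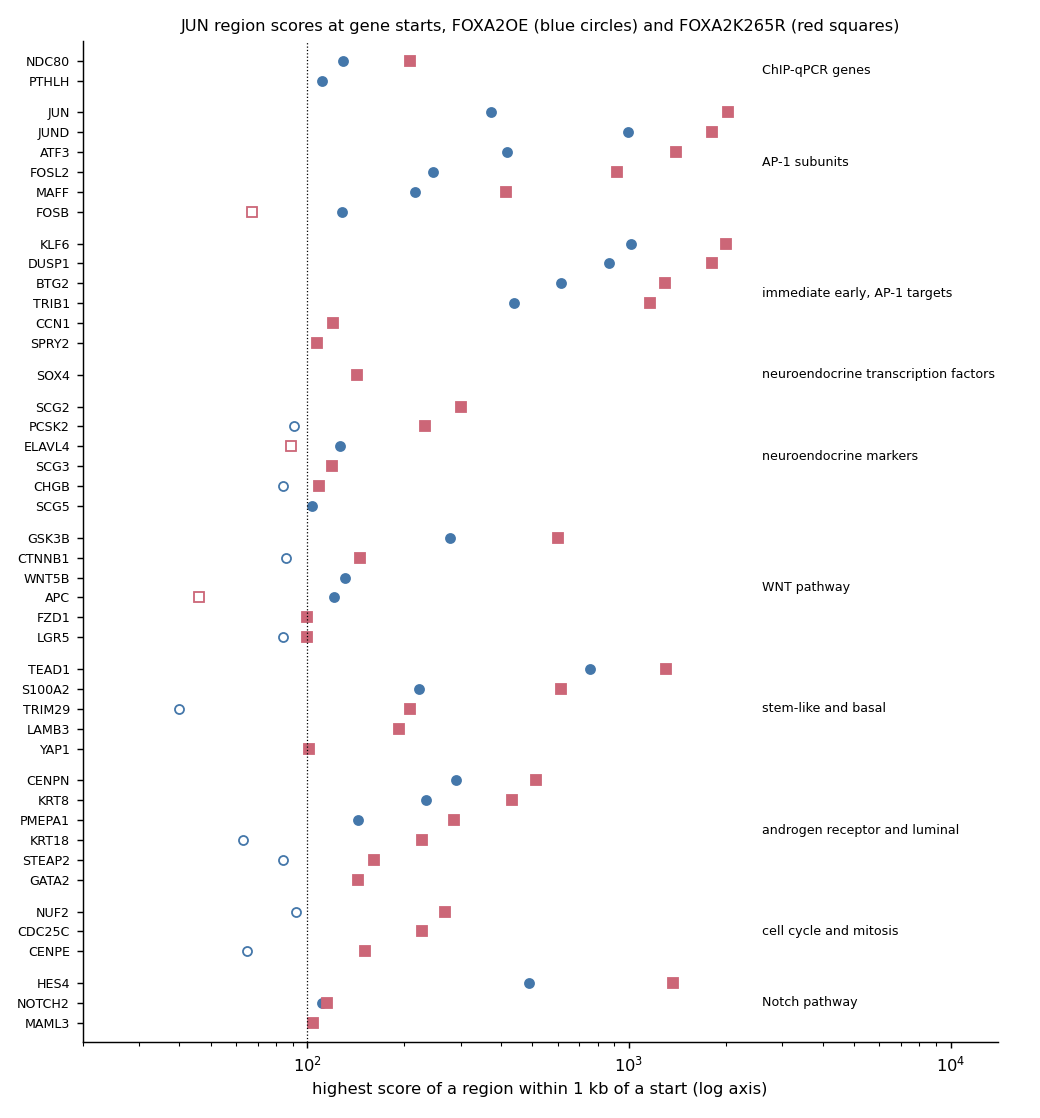
Highest score of a JUN region within 1 kb of a start (log axis) for up to 6 named members of each gene list, in FOXA2OE (circles) and FOXA2K265R (squares); open symbols are regions below 100, the dotted line marks 100, and a missing symbol means no region. AP-1 subunits and immediate early genes reach 2035 and 2010 in FOXA2K265R, while neuroendocrine markers stay at 300 or below.

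Part of both lists lay in repeat-rich sequence beside the large assembly gaps, mostly at centromeres. Of FOXA2K265R regions 707 (14.9%) and of FOXA2OE regions 279 (9.60%) were within 2 Mb of 1 of 28 gaps of at least 1 Mb, and 17.1% of FOXA2K265R-only regions without a FOXA2OE region were. The densest megabase, chr4:49000001-50000000, held 51 FOXA2K265R and 27 FOXA2OE regions, followed by chr1:142000001-143000000 with 50 and 10. None of the FOXA2K265R regions in either held an AP-1 word or a CRE. Without the regions near gaps the AP-1 difference between FOXA2K265R-only and shared regions was 6.55 percentage points, and the log2 ratio of region numbers was 0.62.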

How the data were processed

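The authors aligned ChIP-seq reads to hg19 with BWA (0.7.17-r1188) and called regions with MACS2 (2.1.4), with FastQC 0.11.9 and SAMtools 1.9, per the labels. The deposited lists hold positions and, in 20 of 22, an integer score that the authors' peak caller gave each region. The threshold, the control library and any pooling are not given in the sources used here. The FOXA2K265R sample was grouped by its title.

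Scores depend on library depth, which is unknown, so results are counts, shares and overlaps. Genes came from GENCODE 44 lifted to hg19, restricted to protein-coding transcripts (19821 genes). All 871377 regions lay within the chromosomes of the build. Motifs were exact words on both strands within 100 bp of region centres. Intervals are 95% Wilson intervals, and for differences they combine the Wilson bounds. Overlap and motif code, in Python 3.11.15 with pandas 2.3.3 and pysam 0.24.0, was tested on simulated intervals.

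The members and gene lists were chosen with earlier results of these data known. Named regions were the 5 highest scores per class outside places found in at least 17 lists. Named genes were up to 6 members of each list with the highest score at a start and up to 4 within 50 kb. STEAP1, KLK2 and ELL2, which lie outside that rule, were named after their values were seen. The genes that the study tested by ChIP-qPCR were named in any case. Alternatives covered the score minimum, the overlap, the promoter width, the motif window, places found in most lists and assembly gaps. Sequences from 1 chromosome and a few regions and genes that meet these rules are not reported here.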

Additional observations from a re-analysis of the deposited data

How the results depend on the processing

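The 7 results given here were recomputed under 51 alternatives in all, of which 17 stayed within the interval, or for gene counts within 1.5 times, of the main value. Only the log2 ratio and the promoter and AP-1 differences could change direction, and none of them did. The other results are shares or counts, which have no direction to turn. Outside these 7, the order of shared and FOXA2K265R-only regions in PC3 vehicle FOXA2 turned without places in at least 17 lists, and their AP-1 order was the reverse at 70 to 80% GC. The log2 ratio of region numbers was 0.50 from a score minimum of 50, 1.42 from 200, 0.99 with all regions and 0.62 without regions within 2 Mb of an assembly gap of at least 1 Mb, an alternative chosen after seeing the data. The share of FOXA2OE regions overlapped by a FOXA2K265R region was 30.1% from 50, 84.3% from 200, 37.0% with all regions, 41.8% without places in at least 17 lists, 67.8% against all FOXA2K265R regions, 38.4% with equal numbers, 36.7% when the overlap had to reach 50% of both regions and 42.4% away from gaps. In the other direction the share was 21.2% from 50, 31.1% from 200, 18.7% with all regions, 25.6% without such places, 45.9% against all FOXA2OE regions, 37.8% with equal numbers and 22.5% with the 50% overlap. The promoter share of FOXA2K265R-only minus shared regions was -19.2 percentage points from 50 and with all regions, and -19.5 without such places. The AP-1 difference was 1.44 from 50, 13.2 from 200 and 0.945 with all regions. The overlap of FOXA2K265R-only regions with PC3 JUN was 5.59% from 50, 40.05% from 200, 3.38% with all regions, 20.1% without such places and 15.5% with the 50% overlap. Genes with only a FOXA2K265R region at a promoter numbered 3250 from 50, 442 from 200, 4288 with all regions and 3071 within 50 kb of a start.

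No paired analysis was possible because each condition has 1 list. Without replicates, the spread between cultures is unknown, and the intervals cover counting over regions, many of which neighbour each other. The lists came from different processing folders and end at different lowest scores. The depth of the libraries is unknown, so a region absent from the FOXA2OE list was not called there, which does not show that JUN was absent.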
